A study of Mus musculus with 15 samples.

Results

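The genes described here are 35 genes that mark the blood vessels of the brain, 24 of endothelial cells, 10 of mural cells (pericytes and smooth muscle) and 1, *Cspg5*, that is listed with the mural genes. They were taken by symbol from a list of 36 entries in which *Kdr* stands 2 times, out of 25080 gene symbols in each table. Of these genes, 33 passed the filter on low values (at least 1 TPM in at least 3 libraries) and were tested among 13471 genes; *Anpep* and *Acta2* did not pass.

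The thalamus of adult mice aged 2 to 4 months was profiled by stranded RNA-seq of total RNA after removal of ribosomal RNA, in 14 libraries of unsorted tissue. Every mouse received saline for 3 days and then, for 5 days, either saline or cocaine at 20 mg/kg, intraperitoneally. The 4 groups were saline (n = 4) and cocaine (n = 4) under the control label (titled Maged1 WT, the floxed *Maged1* allele without Cre in the study's account) and saline (n = 4) and cocaine (n = 2) under the cKO label (Maged1 cKO, the floxed allele with Cre driven by the *Vglut2* promoter). That promoter drives Cre in glutamatergic neurons, and vessel cells were not its target. *Maged1* lies on the X chromosome (GRCm38, chrX:94535474-94542143, minus strand). No label says which animals were litter mates or whether tissue was pooled, and the p-values measure the spread between these libraries. One further library under the cKO label with cocaine is not analysed here.

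Brain endothelial cells form the blood-brain barrier. Tight junction proteins seal the space between them, and because little passes between the cells, transporters in their membranes decide which solutes reach the tissue. Pericytes, embedded in the basement membrane around capillaries, and the smooth muscle of arterioles support this layer and set vessel tone. VEGF and angiopoietin receptors on the endothelium keep the vessels in place, and Wnt signals from neural cells keep the barrier genes switched on.

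The promoters of 4 members, picked after the results were seen, are shown as examples: *Slco1a4* and *Cldn5* for a lower level after cocaine, *Kdr* for the single call past both thresholds and *Eng* for a higher level. Each sequence is the 250 bases before the RefSeq transcription start, from GRCm38.p6, read 5′ to 3′ on the strand of the gene, at chr6:141856221-141856470 (minus) for *Slco1a4*, chr16:18776597-18776846 (plus) for *Cldn5*, chr5:75978456-75978705 (minus) for *Kdr* and chr2:32646345-32646594 (plus) for *Eng*. Capitals mark the core of the ETS family, to which the endothelial factor Erg belongs, searched as CGGAAG and AGGAAG on both strands.
Slco1a4: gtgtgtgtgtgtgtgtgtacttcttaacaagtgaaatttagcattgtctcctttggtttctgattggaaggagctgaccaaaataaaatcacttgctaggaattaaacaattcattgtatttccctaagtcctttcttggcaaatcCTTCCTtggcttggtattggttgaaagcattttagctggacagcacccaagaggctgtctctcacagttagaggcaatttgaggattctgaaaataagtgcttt
Cldn5: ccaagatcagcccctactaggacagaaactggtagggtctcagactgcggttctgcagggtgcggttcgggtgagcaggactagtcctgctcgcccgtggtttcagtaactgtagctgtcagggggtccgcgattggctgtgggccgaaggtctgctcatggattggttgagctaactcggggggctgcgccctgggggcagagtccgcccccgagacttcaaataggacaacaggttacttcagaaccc
Kdr: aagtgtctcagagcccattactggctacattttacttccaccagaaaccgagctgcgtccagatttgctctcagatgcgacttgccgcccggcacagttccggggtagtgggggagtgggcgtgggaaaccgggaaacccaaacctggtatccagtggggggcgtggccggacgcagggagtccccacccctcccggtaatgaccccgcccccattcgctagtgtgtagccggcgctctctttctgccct
Eng: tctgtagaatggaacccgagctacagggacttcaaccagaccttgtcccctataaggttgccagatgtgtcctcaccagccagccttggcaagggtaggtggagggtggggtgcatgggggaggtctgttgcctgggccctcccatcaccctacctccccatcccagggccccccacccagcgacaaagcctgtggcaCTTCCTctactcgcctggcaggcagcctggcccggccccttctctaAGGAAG

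The ETS core was found 1 time before *Slco1a4*, starting at position -104 from the transcription start, and 2 times before *Eng*, starting at positions -52 and -6. It was in neither the *Cldn5* nor the *Kdr* window. Of further members that passed adjusted p below, *Itm2a* held it 2 times, and *Mfsd2a*, *Slc2a1*, *Pltp*, *Rgs5* and *Ocln* did not hold it. RefSeq windows were matched for 25 of the 35 members. An ETS core stood in 11 of these 25 members (44.0%), against 42.5% of all 27025 genes with a window. By kind, it stood in 11 of the 18 endothelial genes with a window (61.1%) and in 0 of the 7 mural genes. The E-box CANNTG was in 76.0% of members and 69.3% of all genes, the TEAD motif GGAATG in 24.0% and 14.4%, the glucocorticoid motif AGAACA in 16.0% and 18.2%, and the CArG box, which binds SRF, in 4.0% and 1.62%, the last in *Myl9* alone among the members. These motifs were searched on both strands, AGGAAG and GGAATG share the letters GGAA, a gene was counted when any of its windows held the motif, and a match is a description of the letters and not a binding site.

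The labels were checked first against *Maged1*, the targeted gene. Its level in scaled TPM (transcript abundance per length and library, divided by a TMM scaling factor) was 155 ± 7.99 (SD, n = 4) under the control label with saline and 71.7 ± 6.29 (n = 4) under the cKO label with saline. With cocaine it was 73.5 ± 12.2 (n = 4) under the control label and 164 ± 14.3 (n = 2) under the cKO label. In the cocaine libraries the targeted gene therefore goes against the labels, and for 4 saline libraries the genotype tag names another genotype than the title. Within a label, *Maged1* thus also differs between treatments. It is lower with cocaine under the control label and higher under the cKO label. Treatment and *Maged1* level cannot be told apart in those comparisons. The interaction of label and cocaine, given below, sets control saline and cKO cocaine against control cocaine and cKO saline. *Maged1* is high in the former groups and low in the latter (interaction 2.28, adjusted p = 5.53e-05 in limma). An interaction therefore cannot be told apart from a difference by *Maged1* level. Groups are called by their titles here, as the libraries labelled control or cKO, and the difference between cocaine and saline averaged over both labels, which does not depend on which of the cocaine groups carries which label, is given as well.

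One library stood apart in the listed genes. Control saline replicate 1 had the highest level of its group in 30 of the 33 tested genes, and 90.9% of the members were above their own mean over the 14 libraries in it, against 50.5% of all genes. The summed level of the 35 genes was 287 scaled TPM in that library, and 220 to 258 in the other 13. Markers of choroid plexus summed to 1463 in that library, mostly *Ttr*, and to 3.88 to 57.8 in the others, and markers of vascular and meningeal fibroblasts to 51.1, against 15.9 to 22.8 in the others. The part of these tissues in the vessel genes was not tested, and results that change without this library are given with it left out.

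**Figure D1:**
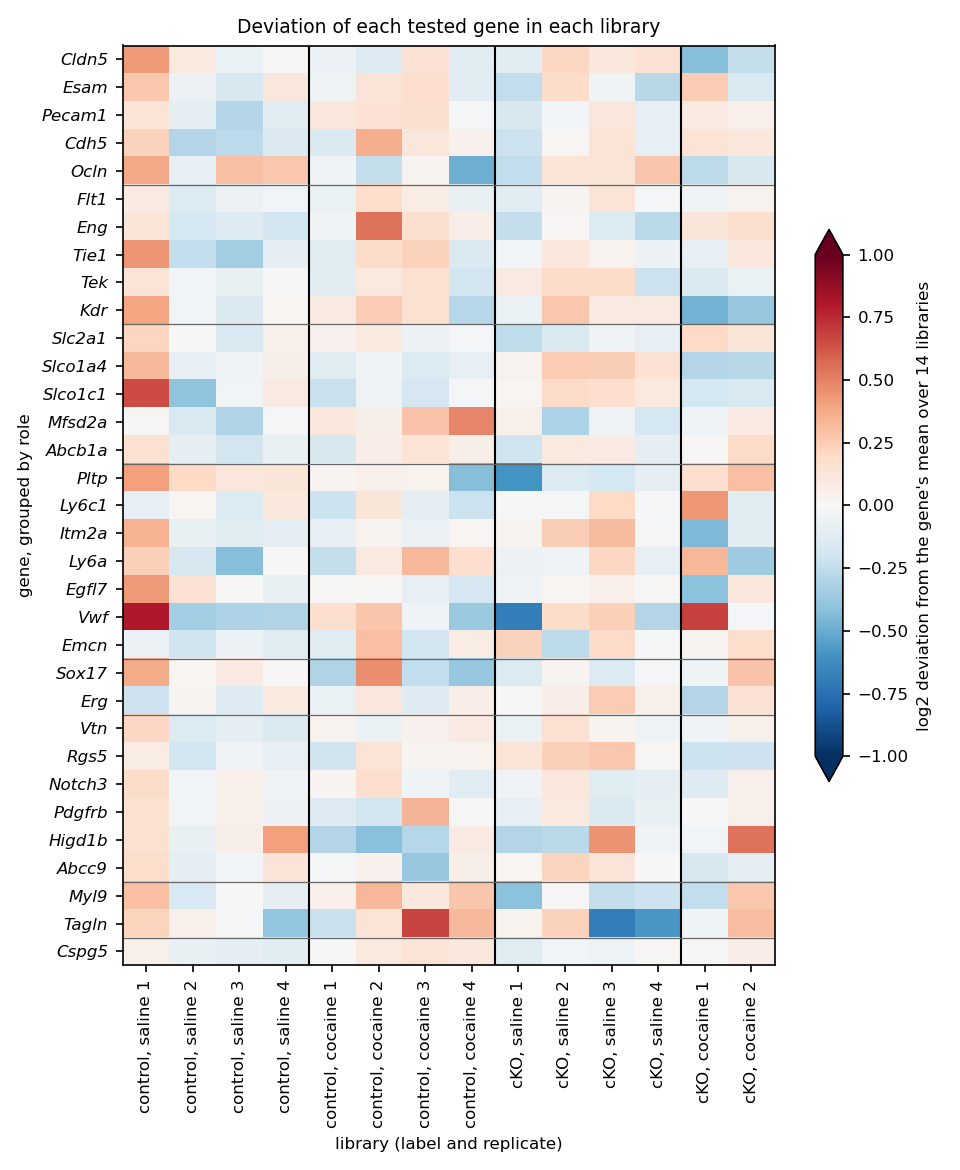
Deviation of each of the 33 tested genes (rows, grouped by role) in each of the 14 libraries (columns, by label and replicate) from the gene's own mean, on the log2 scale, red above and blue below. The column of control saline replicate 1 is red in 30 of 33 genes, and among the role groups only *Cspg5*, which stands alone in its group, is above its mean in all 6 cocaine libraries.

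All 35 genes were detected, over a range from 0.392 scaled TPM on average for *Anpep*, a pericyte peptidase, to 31.9 for *Cspg5*. TPM is a value per length, so that levels can be set side by side between genes. In each role the most abundant gene was *Cldn5* (claudin-5, the main tight junction protein of brain endothelium) at 12.7 for junction and adhesion, *Flt1* (VEGF receptor 1) at 7.26 for receptors, *Slc2a1* (the glucose transporter GLUT1) at 27.5 for transporters, *Pltp* (phospholipid transfer protein) at 25.4 for surface and secreted proteins, *Sox17* at 1.03 for transcription factors, *Vtn* (vitronectin) at 16.3 for pericytes and *Myl9* (a myosin light chain) at 3.92 for smooth muscle. Defining markers of endothelium and pericytes were thus present, while the smooth muscle genes *Acta2* (0.893) and *Tagln* (1.04) were among the lowest. *Cspg5* codes for neuroglycan C, a proteoglycan of neurons and glia, and its level, at percentile 88.5 of all tested genes, is no measure of mural cells; it is kept in the list and given apart.

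**Figure D2:**
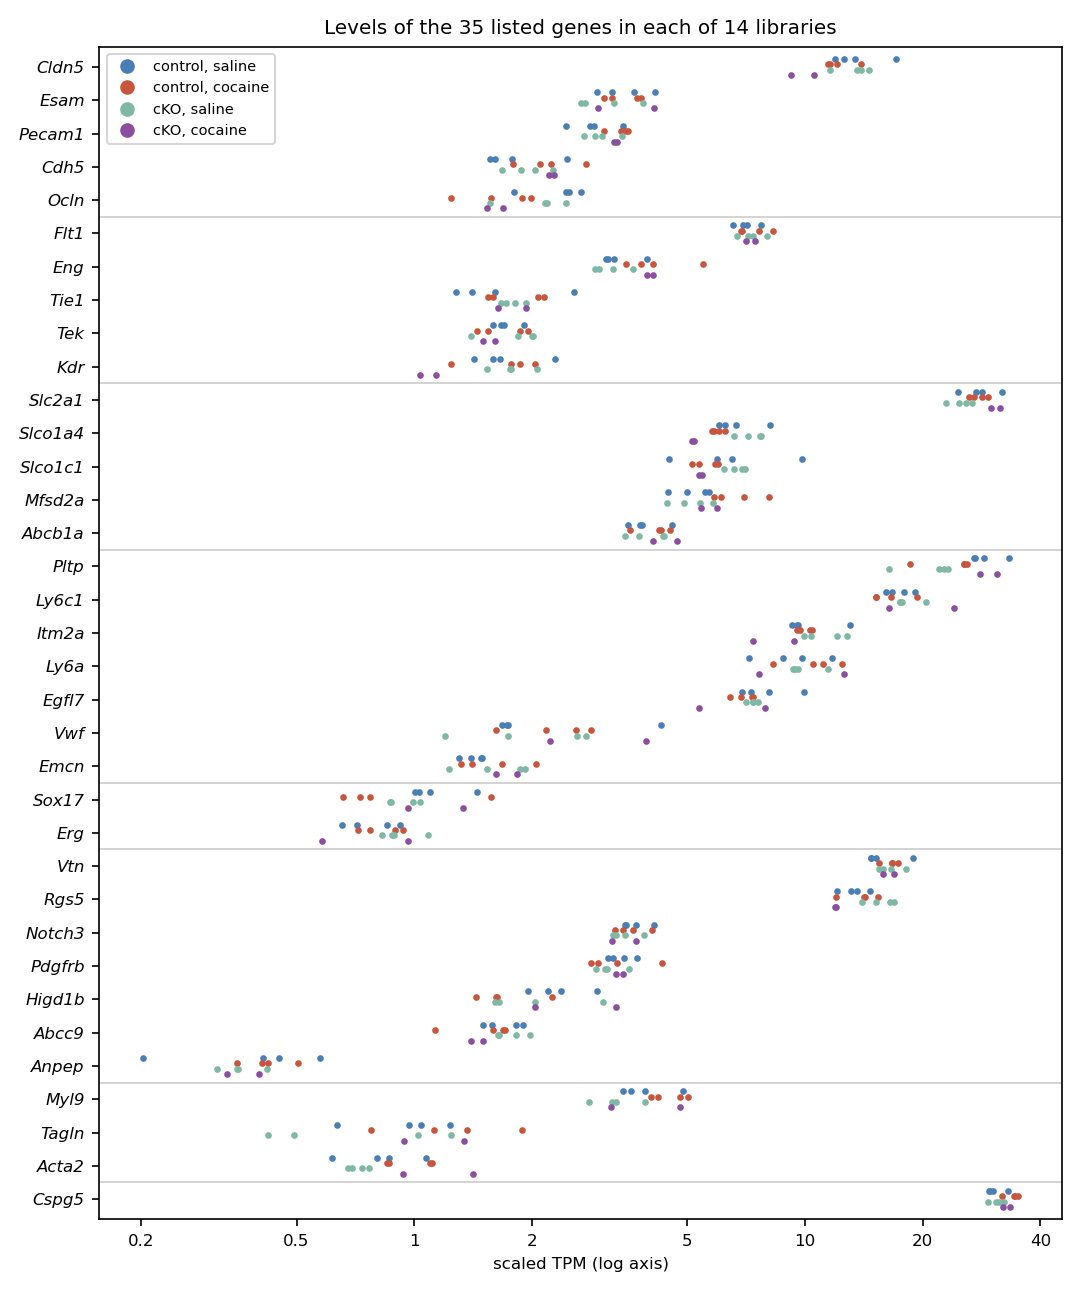
Level of each of the 35 genes (rows, grouped by role) in scaled TPM on a log axis, 1 point per library, coloured by label and treatment. Most genes vary between libraries by less than they differ from each other, and the widest spread among tested genes is that of *Tagln*, 4.45-fold from the lowest to the highest library.

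Members were also compared in how they deviated from their group means over the 14 libraries. Pearson's r had a median of 0.46 over the 276 pairs of tested endothelial genes, of 0.37 over the 28 pairs of mural genes and of 0.28 over the 192 pairs of one kind with the other. Without control saline replicate 1 the medians were 0.30, 0.28 and 0.14 over 13 libraries. *Cspg5* had a median r of 0.49 with the other members, and 0.25 without that library. The points share their libraries and scaling, and these are descriptions. The median r over pairs of other genes is not given, and these values are not read as a result about the members.

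Cocaine was first compared with saline under the control label, where *Maged1* was also lower in the cocaine libraries. A gene was called when its adjusted p was under 0.05 and its log2 fold change at least 0.5 in size, in limma with Benjamini-Hochberg adjustment over all 13471 genes. None of the 33 members was called, while 3.08% of all genes were. Unadjusted p was under 0.05 for 6 members. The share of all genes under unadjusted p of 0.05 is not given, and such counts, here and below, are not read as results about the members. By adjusted p alone, 2 members were higher and 0 lower, where 14.2% of all genes were higher and 10.2% lower. Without control saline replicate 1, *Pecam1* passed too, making 3 members higher. The median log2 fold change of the members was -0.01, with 16 above and 17 below 0.

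*Mfsd2a*, the transporter that carries lysophospholipids with docosahexaenoic acid into the brain, was the member with the smallest adjusted p under the control label. Its levels were 5.66, 5.00, 4.46 and 5.55 in the saline libraries and 6.10, 5.86, 6.98 and 8.07 in the cocaine libraries. The groups did not overlap, and each cocaine library was above each saline library. The log2 fold change was 0.35 (SE 0.11, adjusted p = 0.0287 in limma; exact permutation test of the 4 against 4 libraries, two-sided, p = 0.0286, the smallest these numbers allow). Adjusted p passed 0.05 when control saline replicate 2 or 3 or control cocaine replicate 3 or 4 was left out (0.0653 to 0.0841). *Cspg5* was the other, with 30.7 ± 1.60 in saline and 33.9 ± 1.37 in cocaine, a log2 fold change of 0.14 (adjusted p = 0.0361 in limma). Its groups overlap (exact permutation test p = 0.0571). It was lost in 7 of the 14 fits that left out 1 library (adjusted p 0.0587 to 0.0977 in limma). With genotype tags in place of titles, *Mfsd2a* alone passed (1 higher, 0 lower). With the libraries whose title and tag agree, 0 members passed.

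The cocaine and saline libraries did not overlap for 2 of 33 members under the control label, *Mfsd2a* and *Pltp*, and for 25.2% of all genes. *Pltp* had every cocaine library below every saline library, at 33.3, 28.7, 27.1 and 27.2 after saline and 25.5, 25.9, 25.5 and 18.5 after cocaine. It did not pass the test (log2 fold change -0.29, adjusted p = 0.113 in limma). *Ocln*, which codes for the tight junction protein occludin, was at 2.35 ± 0.38 after saline and 1.67 ± 0.34 after cocaine, and also did not pass (log2 fold change -0.40, SE 0.14, adjusted p = 0.0565 in limma). The 95% interval of the fold change lay within 0.5 of 0 on the log2 scale for 23 of 33 members, or 69.7%, and for 79.5% of all genes.

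Under the cKO label, 1 member was called, *Kdr*, which codes for VEGF receptor 2, the main signalling receptor for VEGF-A on endothelium. It lies at chr5:75932827-75978458 (GRCm38, minus strand), and its levels were 1.54, 2.07, 1.76 and 1.77 scaled TPM after saline and 1.04 and 1.13 after cocaine. Both cocaine libraries lay below the 4 saline libraries, and below the 8 libraries of the control label. The log2 fold change was -0.52 (SE 0.17, 95% interval -0.88 to -0.16, adjusted p = 0.0428 in limma). With 2 libraries against 4 the exact permutation test cannot go below 0.133, which is its value here. Of all genes, 3.14% were called in this comparison. Under the control label *Kdr* was at -0.009 (adjusted p = 0.971 in limma), and its interaction of -0.51 did not pass (adjusted p = 0.228). The call was lost when any of 8 single libraries was left out, control saline replicate 2 or 4, control cocaine replicate 3, cKO saline replicate 2, 3 or 4 or either cKO cocaine library (adjusted p 0.0503 to 0.173 in limma), and *Kdr* is a low gene in which a pseudocount of 0.5 weighs.

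By adjusted p alone, 5 members were lower and 2 higher with cocaine under the cKO label, where 9.96% of all genes were lower and 10.2% higher. Besides *Kdr*, the lower ones were *Slco1a4*, *Cldn5*, *Itm2a* and *Rgs5*. With genotype tags in place of titles, or with the libraries whose title and tag agree, *Slco1a4* alone passed (1 lower, 0 higher), and *Kdr*, *Cldn5*, *Itm2a*, *Rgs5*, *Slc2a1* and *Pltp* did not. Unadjusted p was under 0.05 for 7 members, and the median of the members was 0.07, with 17 above and 16 below 0. Every one of the 7 was separated by library, with both cocaine libraries beyond the 4 saline libraries, as were 3 further members that did not pass. These are 10 of 33 members, while the libraries did not overlap for 43.8% of all genes.

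*Slco1a4*, an organic anion transporter (Oatp1a4) of the brain capillary, had the smallest adjusted p of any member in this comparison. The gene is at chr6:141805440-141856199 (minus strand). Its levels under the cKO label were 6.59, 7.72, 7.68 and 7.13 after saline and 5.13 and 5.19 after cocaine. The log2 fold change was -0.46 (SE 0.096, 95% interval -0.66 to -0.25, adjusted p = 0.00637 in limma), just inside the fold minimum for a call, and adjusted p was 0.0549 without cKO cocaine replicate 2. Under the control label the same gene was at 8.12, 6.02, 6.24 and 6.67 after saline and 5.86, 6.23, 5.77 and 6.03 after cocaine, groups that overlap (log2 fold change -0.16, not past the test). The difference between the labels in the cocaine change, tested as an interaction, was -0.30 (SE 0.12, adjusted p = 0.225 in limma). It is also a difference by *Maged1* level.

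*Cldn5* (chr16:18776847-18778262, plus strand) was at 11.6, 14.6, 13.5 and 13.9 after saline and 9.21 and 10.5 after cocaine under the cKO label (log2 fold change -0.42, adjusted p = 0.0366 in limma). Under the control label it was at 13.7 ± 2.29 and 12.2 ± 1.15, and did not pass (-0.15, adjusted p = 0.319 in limma). *Rgs5*, a regulator of G protein signalling that marks pericytes, was at 15.2, 16.5, 16.8 and 14.01 after saline and 11.9 and 11.99 after cocaine (-0.37, adjusted p = 0.0176), and at 13.35 ± 1.076 and 13.95 ± 1.39 under the control label. *Itm2a*, a membrane protein of brain endothelium, was at 10.3, 12.1, 12.8 and 9.96 after saline and 7.34 and 9.34 after cocaine (-0.42, adjusted p = 0.0471). Under the control label *Itm2a* did not pass (-0.04, adjusted p = 0.841 in limma). In these genes the saline and cocaine libraries of the cKO label are apart, with 2 libraries on the cocaine side. Leaving out either cKO cocaine library took adjusted p to between 0.0614 and 0.344 in *Cldn5*, *Rgs5* and *Itm2a*. Of the 14 fits that left out 1 library, *Rgs5* was lost in these 2, *Cldn5* in 5, the others being those without cKO saline replicate 2, 3 or 4, and *Itm2a* in 12, all but those without control saline replicate 1 or cKO saline replicate 4.

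The 2 members that were higher under the cKO label were abundant ones. *Slc2a1* was at 22.9, 24.7, 26.7 and 25.8 after saline and 31.5 and 29.9 after cocaine (log2 fold change 0.29, adjusted p = 0.0333 in limma), and *Pltp* at 16.4, 22.6, 22.0 and 23.2 after saline and 28.0 and 30.9 after cocaine (0.49, adjusted p = 0.0407). *Slc2a1* was lost in 4 of the 14 fits that left out 1 library, those without cKO saline replicate 1 or 2 or either cKO cocaine library (adjusted p 0.0587 to 0.167 in limma). *Pltp* was lost in 7, those without control saline replicate 2, 3 or 4, cKO saline replicate 1 or 3 or either cKO cocaine library (0.0504 to 0.249). *Pltp* ran the other way under the control label, and its interaction, 0.77 (SE 0.20, 95% interval 0.35 to 1.20), was the largest of the members. It did not pass (adjusted p = 0.0699 in limma). Markers of ependyma, the ciliated lining of the ventricles, summed to between 43.0 and 46.8 after saline and 7.73 and 44.5 after cocaine under the control label, and to between 7.36 and 32.2 after saline and 37.3 and 51.9 after cocaine under the cKO label. The part of that tissue in *Pltp* was not tested.

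The 95% interval lay within 0.5 of 0 for 16 of 33 members under the cKO label (48.5%), against 72% of all genes. The widest interval was that of *Vwf*, which codes for von Willebrand factor. Its levels were 3.92 and 2.22 after cocaine and between 1.20 and 2.74 after saline, so that the log2 fold change was 0.48 with an SE of 0.35, the largest of the 33.

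**Figure D3:**
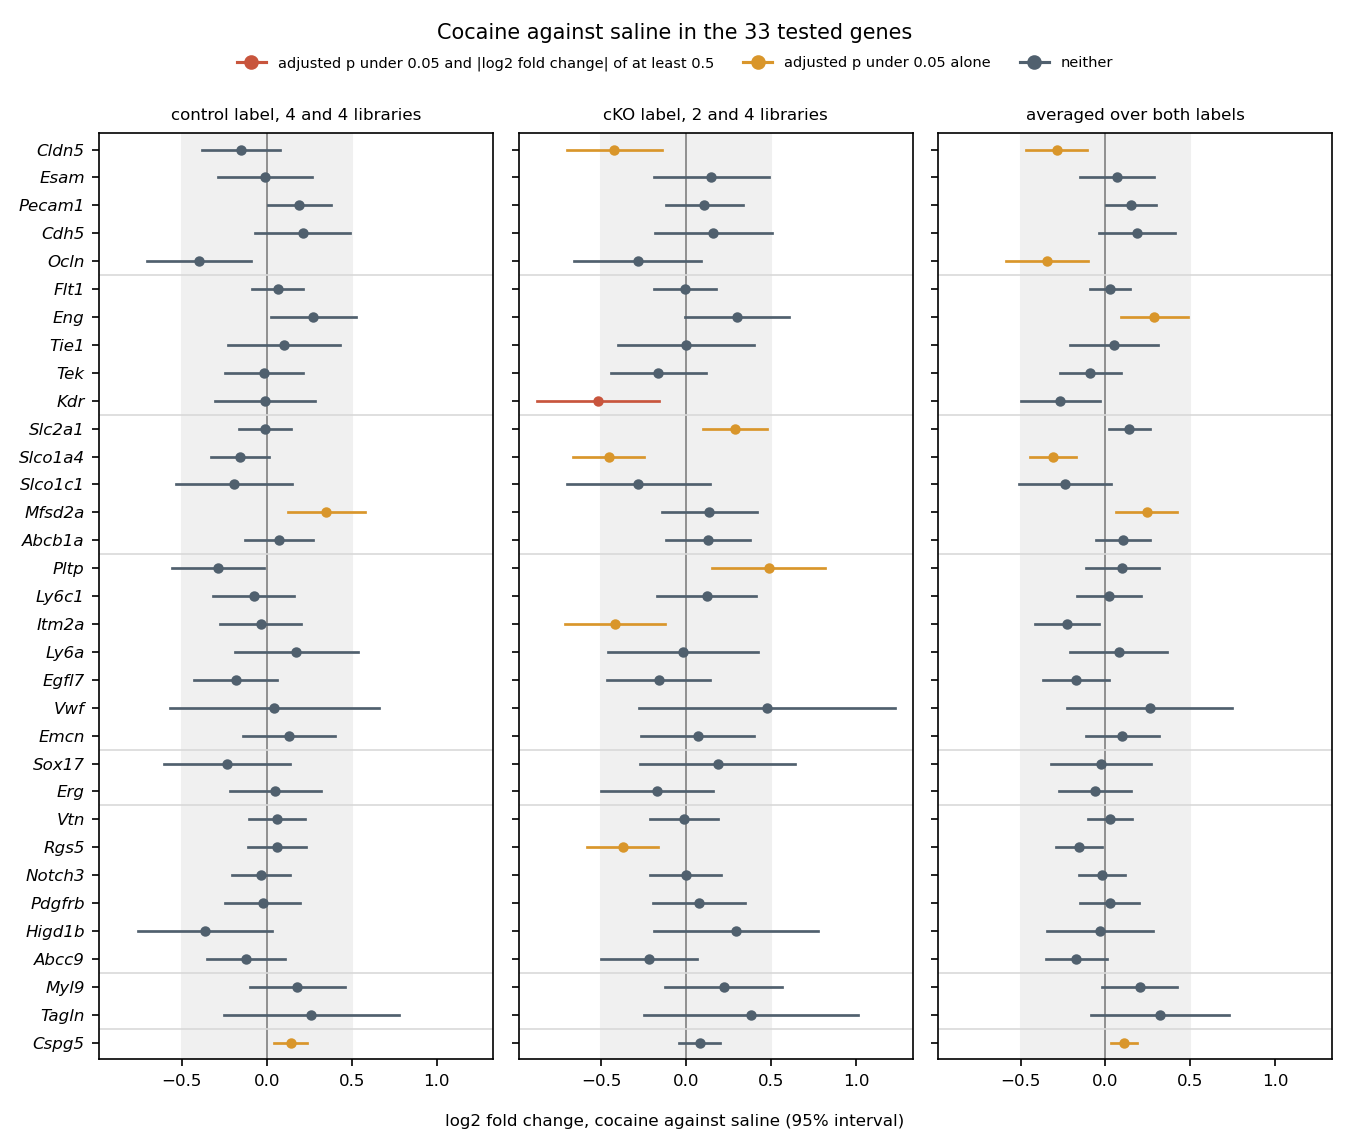
Log2 fold change of cocaine against saline with its 95% interval for each of the 33 tested genes, under the control label, under the cKO label and averaged over both; the grey band marks changes below 0.5 in size. *Kdr* under the cKO label is the one gene past both thresholds (red), and 2, 6 and 6 genes passed adjusted p alone (orange).

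Averaged over both labels, cocaine called 0 of the 33 members, and 2.07% of all genes. By adjusted p alone, 3 members were higher and 3 lower, where 17.8% of all genes were higher and 15.3% lower. Unadjusted p was under 0.05 for 11 members. Every gene past adjusted p is also under 0.05 unadjusted, so that the share of all genes there is at least those 2 shares together. The median of the members was 0.03, beside 0.01 for all genes, with 19 members above 0 and 14 below. The 95% interval lay within 0.5 of 0 for 29 of 33 members (87.9%), and for 87.5% of all genes. All 6 cocaine libraries lay apart from all 8 saline libraries for 0 of the 33 members, and for 10.9% of all genes. With genotype tags in place of titles, the same members passed adjusted p. With the libraries whose title and tag agree, 0 passed as higher and 2 as lower, *Cldn5* and *Slco1a4*, and *Ocln*, *Eng*, *Mfsd2a* and *Cspg5* did not pass.

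Genes of the same role went in both directions. Among the junction and adhesion genes, *Cldn5* and *Ocln* were lower with cocaine, at -0.29 (SE 0.083, adjusted p = 0.0186 in limma) and -0.34 (SE 0.11, adjusted p = 0.0318), and the adhesion genes *Cdh5* (VE-cadherin, 0.19), *Pecam1* (CD31, 0.15) and *Esam* (0.07) did not pass the test. *Ocln* was at 2.67, 1.80, 2.495 and 2.44 after saline and 1.89, 1.57, 1.99 and 1.24 after cocaine under the control label, and at 1.56, 2.19, 2.17 and 2.45, then 1.53 and 1.68, under the cKO label, so that the groups overlap. Without control saline replicate 1 its adjusted p was 0.0522, and it was lost in 10 of the 14 fits that left out 1 library, while *Cldn5* was lost only without cKO cocaine replicate 1 (0.0907).

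Among the receptors, *Eng*, which codes for endoglin, a co-receptor for TGF-β and BMP9, was higher, at 0.29 (SE 0.091, adjusted p = 0.0283 in limma). Its levels were 3.94, 3.13, 3.25 and 3.10 after saline and 3.47, 5.47, 4.08 and 3.79 after cocaine under the control label, and 2.97, 3.64, 3.22 and 2.89 after saline and 3.95 and 4.09 after cocaine under the cKO label. The cocaine libraries are the higher ones but for overlap with control saline replicate 1 and cKO saline replicate 2. Adjusted p passed 0.05 without any of 6 libraries (0.0507 to 0.104). *Kdr* was at -0.27 (adjusted p = 0.0754), and *Flt1* (0.03), *Tie1* (0.05) and *Tek*, the angiopoietin receptor Tie2 (-0.09), did not pass.

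Among the transporters, *Slco1a4* was lower, at -0.31 (SE 0.062, 95% interval -0.44 to -0.17, adjusted p = 0.00241 in limma), and *Mfsd2a* higher, at 0.24 (SE 0.083, adjusted p = 0.0384). *Slco1a4* passed in all 14 fits that left out 1 library. *Mfsd2a* was lost in 9 of them. *Slc2a1* (0.14), *Slco1c1*, which carries thyroxine (-0.24), and *Abcb1a*, P-glycoprotein (0.10), did not pass; without control saline replicate 1, *Slc2a1* and *Pecam1* passed too, making 5 members higher and 2 lower. *Slco1a4* and *Abcb1a* belong to families of close relatives, between which the authors' quantification could divide reads, as do *Ly6a* and *Ly6c1*.

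The surface and secreted proteins, the transcription factors and the mural genes held no member past adjusted p when averaged over both labels. *Itm2a* (-0.23), *Egfl7* (-0.17), *Ly6a* (0.08), *Ly6c1* (0.02), *Emcn* (endomucin, 0.10), *Vwf* (0.26) and *Pltp* (0.10) spanned both signs, and the endothelial factors *Sox17* and *Erg* were at -0.03 and -0.06. Of the pericyte genes, *Rgs5* was at -0.16 (adjusted p = 0.0714 in limma), *Abcc9*, the sulphonylurea receptor SUR2, at -0.17, *Higd1b* at -0.03, *Notch3* at -0.02, and *Vtn* and *Pdgfrb*, the receptor through which endothelial PDGF-B recruits pericytes, both at 0.03. The smooth muscle genes *Myl9* and *Tagln*, the latter coding for transgelin, were at 0.20 and 0.32. *Acta2*, smooth muscle α-actin, is below the filter. In a fit of 20427 genes with no filter its log2 fold change was 0.30 (adjusted p = 0.0392), and that of *Anpep* was 0.02. *Acta2* is close in sequence to the other actins. *Cspg5* was higher, at 0.11 (SE 0.035, adjusted p = 0.0291). It was lost in 6 of the 14 fits that left out 1 library (adjusted p 0.0524 to 0.131 in limma).

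**Figure D4:**
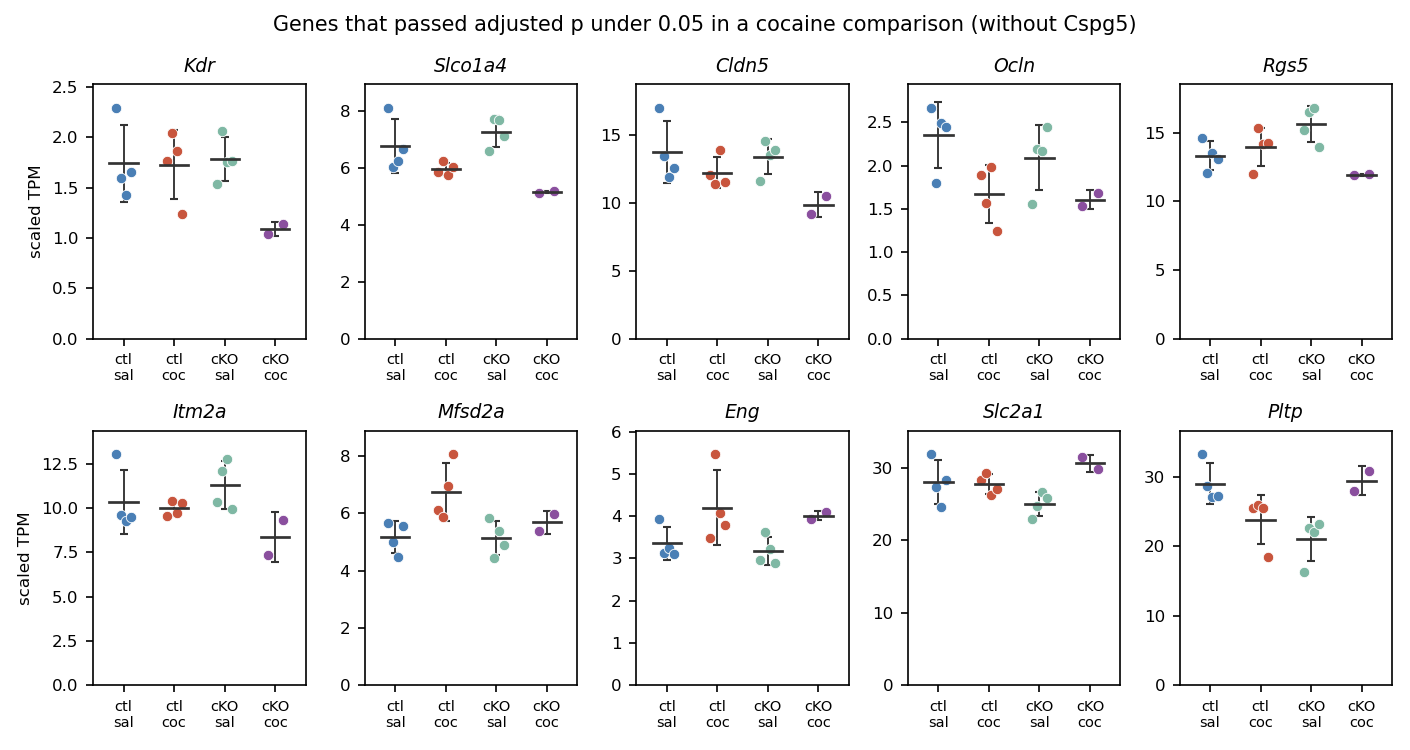
Level of 10 genes in scaled TPM (axis from 0) in each library of the 4 groups (ctl, control label; sal, saline; coc, cocaine), with the group mean (bar) and SD (whisker). *Kdr*, *Slco1a4*, *Cldn5* and *Rgs5* have their 2 lowest points in the cocaine libraries of the cKO label.

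In bulk tissue, fewer cells of a type and less RNA per cell cannot be told apart. Endothelial genes had a median log2 fold change of 0.04 and mural genes of 0.00 averaged over both labels, and cell number was not tested. Markers of red blood cells, which measure blood left in the vessels, summed to 207 to 442 over the 14 libraries, with overlap between all groups. Of the 9 tested markers of hypothalamus, which borders the dissected tissue, 5 were called lower with cocaine under the control label. Of all genes, 3.08% were called there in either direction. These markers summed to 137 to 473 after saline and 4.88 to 131 after cocaine there. Under the cKO label they summed to 12.5 to 150 after saline and 36.9 and 77.2 after cocaine. Markers from other lists were called too. Under the control label these were *Mobp* (0.60), *Gpr17* (0.54), *Prkcd* (0.74) and *Calb2* (-0.69). Under the cKO label they were *Agt* (0.60), *Rsph1* (1.27), *Gbx2* (0.95) and *Calb2* (0.95). The part of these tissues and cells in the vessel genes was not tested. Scaling bears on each sign: the TMM factors were 1.07 to 1.22 in the saline and 0.807 to 0.939 in the cocaine libraries, and with TPM as deposited the median of all genes moved to -0.34 on the log2 scale, so that changes are given relative to the other genes.

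The labels were also compared with each other. After saline, 0 of 33 members were called between the cKO and the control label, and 0.052% of all genes. Unadjusted p was under 0.05 for 3 members, *Pltp* (-0.46), *Slc2a1* (-0.16) and *Rgs5* (0.22). The share of all genes by unadjusted p is not given for these comparisons either. The libraries of the labels did not overlap for 1 of 33 members and for 12.6% of all genes. That member, *Pltp*, was lower in each of the 4 libraries labelled cKO than in each labelled control (16.4 to 23.2 against 27.1 to 33.3, adjusted p = 0.114 in limma). The interval lay within 0.5 of 0 for 27 of 33 members, or 81.8%, and for 85.6% of all genes. After cocaine, 0 members and 0.0371% of all genes were called, with unadjusted p under 0.05 for 4 members, *Cldn5* (-0.30), *Kdr* (-0.48), *Rgs5* (-0.21) and *Higd1b* (0.48). In the interaction, 0 members and 0.802% of all genes were called, with unadjusted p under 0.05 for 7 members, *Kdr*, *Slco1a4*, *Slc2a1*, *Itm2a*, *Pltp*, *Rgs5* and *Higd1b*.

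The ligands, co-receptors and factors around these genes were read from 79 further genes, of which 60 were tested. Averaged over both labels, 8 were higher and 2 lower by adjusted p, and 1 and 1 were called, where 17.8% of all genes were higher and 15.3% lower by adjusted p and 2.07% were called. The call higher was *Klf2*, a transcription factor of endothelium that responds to flow, at 0.66 (SE 0.15, adjusted p = 0.00568 in limma), with 3.21, 2.25, 2.55 and 2.17 after saline and 4.07, 4.26, 2.40 and 5.29 after cocaine under the control label, and 1.92, 2.60, 1.47 and 2.32 after saline and 4.21 and 3.64 after cocaine under the cKO label. One cocaine library, control replicate 3, lay within the saline range. The call lower was *Tfrc*, the transferrin receptor, at -0.53 (SE 0.091, adjusted p = 0.000832), which neurons also make. It was at 20.4 ± 2.51 and 15.6 ± 2.71 under the control label and at 18.7 ± 1.90 and 11.5 ± 0.0096 under the cKO label.

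Within a label, the calls were *Lef1* under the control label (0.54, adjusted p = 0.0174 in limma, and 0.44, adjusted p = 0.0109, averaged over both labels), and *Klf2* (0.80), *Pgf* (0.51) and *Tfrc* (-0.67) under the cKO label. *Lef1* codes for a factor of Wnt signalling that thalamic neurons also express. *Pgf* codes for placental growth factor, a ligand of VEGF receptor 1, and was low, at 0.95 ± 0.13 after saline and 1.57 ± 0.045 after cocaine under the cKO label (averaged over both labels 0.28, adjusted p = 0.0218 in limma).

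*Vegfb*, a ligand of the receptor coded by *Flt1*, was chosen after its values were seen. It was at 24.5 ± 0.40 after saline and 33.1 ± 2.44 after cocaine under the control label, and at 26.7 ± 1.37 and 33.7 ± 1.95 under the cKO label. All 6 cocaine libraries lay above all 8 saline libraries, and the averaged log2 fold change was 0.38 (SE 0.042, adjusted p = 4.24e-05 in limma), short of the fold minimum. *Vegfa*, a ligand of the receptors coded by *Kdr* and *Flt1* and chosen likewise, was at 0.24 (adjusted p = 0.00647), with groups that overlap. *Vegfb* and *Vegfa* were higher while *Flt1* was at 0.03 and *Kdr* at -0.27 and did not pass. A further VEGF ligand, *Vegfc*, was at -0.17 and did not pass (adjusted p = 0.266 in limma).

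**Figure D5:**
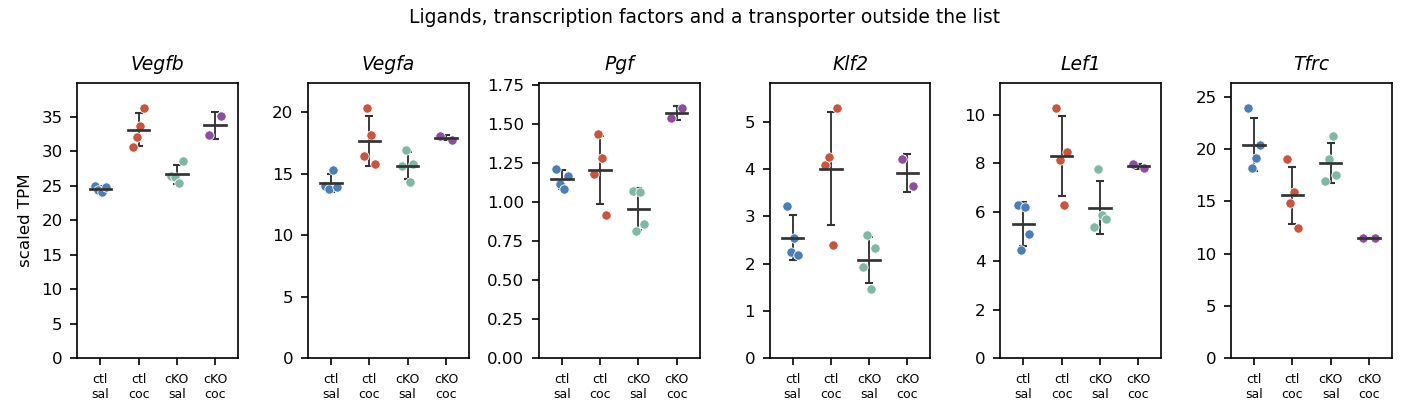
Level in scaled TPM (axis from 0) of 6 genes outside the list, in each library of the 4 groups (ctl, control label; sal, saline; coc, cocaine), with the group mean (bar) and SD (whisker). All 6 cocaine points of *Vegfb* lie above all 8 saline points, and the cocaine means of *Tfrc* are below the saline means under both labels.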

How the data were processed

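Ribosome-depleted, stranded total RNA of thalamus was sequenced, and each table gives TPM for 25080 gene symbols. Per the labels and methods, the authors mapped reads to GRCm38.p4 with STAR 2.5.3a and quantified transcripts with Salmon to make the deposited TPM, a value normalised for length and depth. Of the deposited tables, 2 write a decimal comma (here a value of another format, read as TPM). Depth per library is unknown from TPM, which keep no counts, and no counting interval was computed.

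The 14 libraries were grouped by title. Genes that reached 1 TPM or more in 3 or more libraries were kept, scaled by TMM factors (30% and 5% trims) and tested as log2(value + 0.5) with limma 3.58.1 in R 4.3.3, in a means model of the 4 groups with an intensity trend. Fold changes are on that scale, which understates low genes. Called genes had a Benjamini-Hochberg adjusted p under 0.05 and a log2 fold change of at least 0.5. The model was checked on simulated data. Alternatives are other scalings, pseudocounts, filters, genotype tags, a replicate block and leaving out each library.

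The members and lists were chosen with earlier results of these data known. Every member is named; those called and the most abundant of each role are given by library or by group mean and SD, and pathway genes when called, up to 3 per comparison; *Vegfb* and *Vegfa*, not called, were added after their values were seen. Members past adjusted p alone were added after their values were seen. No 2 tables were identical. Replicate numbers did not pair libraries.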

Additional observations from a re-analysis of the deposited data

Results flagged for a closer look

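A library was looked at again where its gap to the nearest of the other 3 libraries of its group, divided by the range of the group, was above the 95% critical value of Dixon's test. Of 105 combinations of a member and a group of 4 libraries, 7 were past it, and chance alone passes about 1 in 20. Control saline replicate 1 held 3 of the 7. *Vwf* was at 4.29 scaled TPM there and at 1.67 to 1.73 in the others, *Itm2a* at 13.1 and 9.27 to 9.60, and *Vtn* at 18.9 and 14.7 to 15.2, all above. *Pltp* was low in control cocaine replicate 4 (18.5, others 25.5 to 25.9). *Sox17* was high in control cocaine replicate 2 (1.57, others 0.656 to 0.769), and cKO saline replicate 3 was high in *Ly6a* (11.5, others 9.29 to 9.58) and *Ly6c1* (20.4, others 17.5 to 17.7). The causes were not tested.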

How the results depend on the processing

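Of 15 results for single members that passed adjusted p, 381 alternatives were run, of which 248 kept the direction and the side of the threshold, 128 kept the direction and lost it and 5 reversed. All 5 reversals came from TPM as deposited, in which the median of all genes is itself near -0.34: *Cspg5* under the control label (-0.23) and averaged (-0.27), *Slc2a1* under the cKO label (-0.096), *Eng* averaged (-0.049) and *Mfsd2a* averaged (-0.11). That setting gave medians of the members of -0.30, -0.31 and -0.30 under the control label, under the cKO label and averaged. The medians of all genes were -0.34, -0.35 and -0.34. It called 7, 9 and 8 members lower. The share of all genes called lower in it is not given, and these counts are not read as results about the members. With no fold change minimum, 2 members were higher under the control label, 2 higher and 5 lower under the cKO label, and 3 higher and 3 lower averaged, by construction. The single lower call under the cKO label, *Kdr*, became 0 with a mean of at least 5 TPM and with mural genes alone, which hold no *Kdr*. With a pseudocount of 1 it became 0 as well, where *Kdr* still passed adjusted p and missed only the fold minimum. It also became 0 with no filter, with genotype tags in place of titles and with the libraries whose title and tag agree. In those 3 settings *Kdr* did not pass adjusted p, and the cause was not tested. Leaving out 1 library at a time gave 0 to 2 lower calls and 0 to 1 higher calls under the cKO label, and 0 in the other comparisons; the second lower call came without cKO saline replicate 1, and the higher call without cKO saline replicate 2 or 4. *Slco1a4* averaged over both labels was the one of the 15 results that kept adjusted p under 0.05 in each of its 25 alternatives (log2 fold change -0.66 to -0.27).

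Replicate numbers ran through the groups, but same-numbered libraries did not deviate together (mean r -0.014 over 18 pairs, 0.0046 over 54 pairs of different numbers). With the replicate block, 0 members were called in each comparison but *Kdr* under the cKO label (1 lower), with medians of -0.01 under the control label, 0.07 under the cKO label and 0.03 averaged. By adjusted p alone the replicate block left 1 higher under the control label, 2 lower under the cKO label and 1 higher and 2 lower averaged. TPM carry no depth, so that the limit for low genes such as *Kdr*, *Tagln* and *Erg* is the spread between libraries.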
